A study of Mus musculus with 4 samples.

Results

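Chemokine receptors are G protein-coupled receptors that steer leukocytes along gradients of small secreted ligands, the chemokines. On CD4 T cells their repertoire is tied to cell state: CCR7 guides cells into and within lymph nodes, CXCR3 and CXCR6 mark effector cells in inflamed tissue, CCR4 and CCR8 are known from Th2 cells, regulatory T cells and skin homing, and CCR6 is the receptor of conventional Th17 cells. In EAE, a mouse model of MS induced by immunizing with peptide from myelin, this repertoire bears on which effector cells are found in the spinal cord. The 9 genes described here are Cxcr3, Cxcr4, Cxcr6, Cx3cr1, Ccr1, Ccr2, Ccr4, Ccr7 and Ccr8, taken by name from the receptor family without Ccr6 and Cxcr5, which are given only for comparison. They are 9 of 23990 gene symbols in the deposited tables.

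RNA was measured in 4 libraries, all of effector CD4 cells (CD44+CD4), with 2 from spinal cord, called CNS here, and 2 from draining lymph nodes (dLN), which were pooled. All came from wild type C57BL/6 mice (C57BL/6J in the Methods) immunized with MOG peptide in complete Freund's adjuvant, given pertussis toxin and sampled at disease onset, so no library is from a naive mouse. The Methods state that sorted cells of both tissues received PMA and ionomycin before lysis, whereas the sample labels describe fresh sorting and name no stimulation. Neither source gives the age or sex of the mice or says which animals made up each library, and p-values measure only the spread between these libraries, which may be technical. Values are in FPKM, a count of fragments divided by transcript length and library size, so that levels can be compared between genes of unequal length.

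CNS and dLN libraries differed in much besides the receptors. A limma fit on log2(FPKM + 1) called 7968 of 10634 tested genes (74.9%) at a Benjamini-Hochberg adjusted p under 0.05, of which 4016 (37.8%) were higher and 3952 (37.2%) lower in CNS. For 89.4% of tested genes both libraries of one tissue lay above both of the other, so a difference between the tissues was the usual outcome for any gene. Log2 ratios are given with limma standard errors (SE). Depth was estimated at 18.5 M to 22.0 M fragments per library. CD4 T cell markers (Cd3d, Cd3e, Cd3g, Cd4 and Cd44) were read in every library and summed to 2059 and 2050 FPKM in CNS and to 576 and 498 FPKM in dLN, with 4 of 5 higher and Cd44 lower in CNS. Y-linked Ddx3y was at 12.7 and 11.2 FPKM in CNS and listed at 0 in dLN, whereas dLN libraries held 26.6 and 22.3 FPKM of Xist, which did not exceed 0.0026 FPKM in CNS. Of 16 genes that PMA and ionomycin induce, 12 were lower and 2 higher in CNS (median log2 ratio -3.39), and of 10 dissociation and heat-shock genes 8 were higher and 1 lower (median 2.83). Among those 8 were Fos, Jun and Junb (3.29, 4.49 and 2.38), which stimulation can also induce. Of the 16, Il4 reached the mean of 1 FPKM needed for testing in dLN alone, which set its direction. The part of stimulation, handling and sex in the receptor values was not tested, and each follows the same split of the libraries as tissue. In bulk RNA, fewer cells carrying a receptor and less of its RNA per cell cannot be told apart.

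Of the 9 receptors, 5 rose in CNS (Cxcr4, Cx3cr1, Ccr2, Cxcr6 and Cxcr3), 3 fell (Ccr8, Ccr4 and Ccr7), and Ccr1 did not pass the test. Among all tested genes 37.8% were called higher and 37.2% lower in CNS. The rises ran from a log2 ratio of 1.09 for Cxcr3 to 3.47 for Cxcr4, and the falls from -1.30 for Ccr7 to -2.02 for Ccr8. For 8 of the 9 genes the CNS and dLN libraries did not overlap, a share like that among all genes tested. The median log2 ratio of the 9 receptors was 1.09, beside 0.05 over all genes tested. All 9 had a mean of at least 1 FPKM in at least one tissue, but Cx3cr1 passed that minimum through CNS alone, which set its direction.

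**Figure D1:**
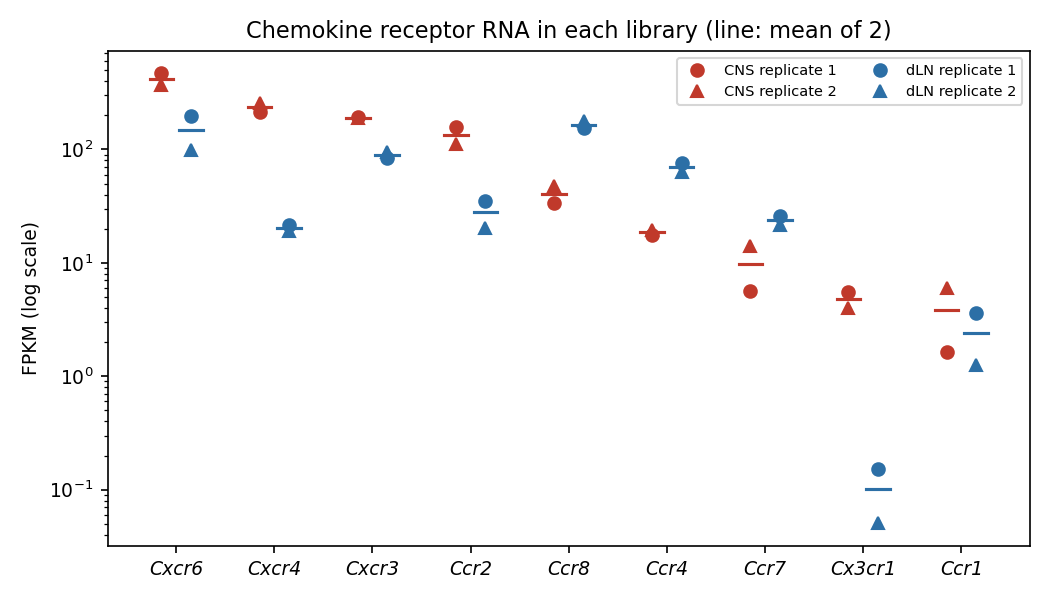
FPKM (log axis) of the 9 receptor genes, with circles for replicate 1, triangles for replicate 2, red for CNS, blue for dLN and a line at the mean of 2 libraries. Genes are ordered by their CNS mean: Cxcr6 is the highest in CNS at 367 to 469 FPKM, and Ccr8 is above its CNS values in both dLN libraries, at 154 and 177 FPKM.

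**Figure D2:**
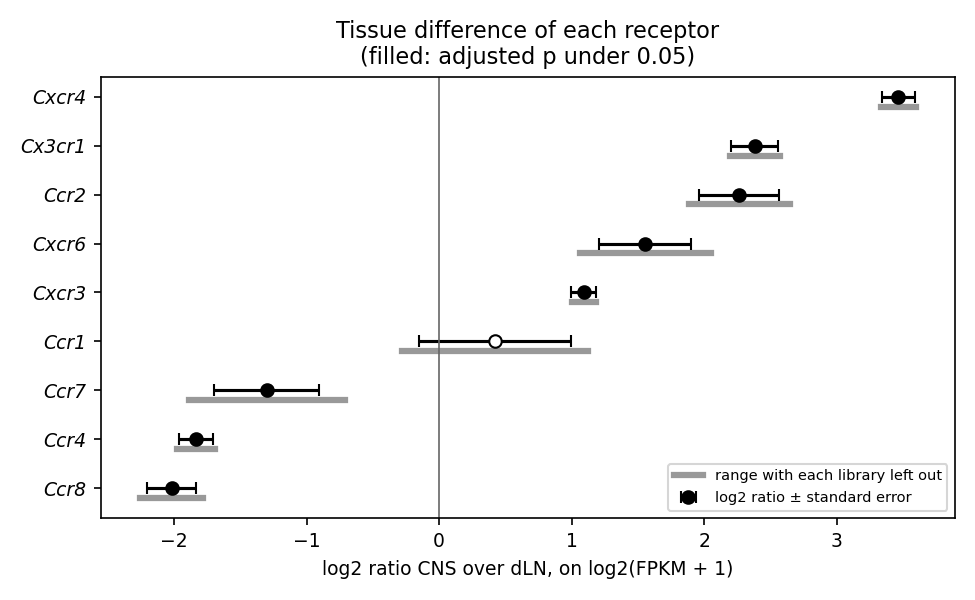
Log2 ratio of CNS over dLN on log2(FPKM + 1) for each receptor, with limma standard errors as bars, filled points for an adjusted p under 0.05 and grey lines for the range with each library left out in turn. Cxcr4 lies highest at 3.47, Ccr8 lowest at -2.02, and only the grey line of Ccr1 crosses 0.

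Promoters of 8 of the 9 genes were found among the RefSeq promoters of GRCm38.p6 (300 bases each, most of them before the start of the gene), and Ccr7 was not. The promoters of 4 genes are shown because these receptors carry the contrast, Cxcr6 as the highest in CNS, Cxcr4 with the largest log2(FPKM + 1) ratio, and Ccr4 and Ccr8 as the pair that fell furthest. Capitals mark matches on either strand to the AP-1 motif TGANTCA, the NFAT core GGAAA and the GC box CCGCCC, the first and second being motifs of factors that T-cell stimulation activates. Cxcr6 (chr9:123806227-123806526, plus strand), Cxcr4 (chr1:128592250-128592549, minus strand), Ccr4 (chr9:114496495-114496794, minus strand) and Ccr8 (chr9:120091883-120092182, plus strand) read, in the direction of transcription:
Cxcr6: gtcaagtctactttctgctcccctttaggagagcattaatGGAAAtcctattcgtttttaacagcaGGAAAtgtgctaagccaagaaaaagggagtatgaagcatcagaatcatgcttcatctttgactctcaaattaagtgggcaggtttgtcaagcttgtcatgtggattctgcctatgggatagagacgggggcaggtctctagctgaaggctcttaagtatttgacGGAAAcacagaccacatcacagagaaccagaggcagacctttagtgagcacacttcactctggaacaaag
Cxcr4: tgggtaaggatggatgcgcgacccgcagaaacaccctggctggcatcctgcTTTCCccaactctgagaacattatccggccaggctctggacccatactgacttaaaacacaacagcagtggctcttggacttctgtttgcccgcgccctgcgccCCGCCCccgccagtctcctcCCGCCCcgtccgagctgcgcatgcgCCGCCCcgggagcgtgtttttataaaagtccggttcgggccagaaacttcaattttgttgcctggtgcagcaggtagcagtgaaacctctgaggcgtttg
Ccr4: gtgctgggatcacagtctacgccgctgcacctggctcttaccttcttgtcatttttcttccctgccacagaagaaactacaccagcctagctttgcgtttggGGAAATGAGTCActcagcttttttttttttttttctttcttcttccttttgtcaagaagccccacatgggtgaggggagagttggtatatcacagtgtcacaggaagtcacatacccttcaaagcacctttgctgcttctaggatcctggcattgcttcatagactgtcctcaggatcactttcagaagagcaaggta
Ccr8: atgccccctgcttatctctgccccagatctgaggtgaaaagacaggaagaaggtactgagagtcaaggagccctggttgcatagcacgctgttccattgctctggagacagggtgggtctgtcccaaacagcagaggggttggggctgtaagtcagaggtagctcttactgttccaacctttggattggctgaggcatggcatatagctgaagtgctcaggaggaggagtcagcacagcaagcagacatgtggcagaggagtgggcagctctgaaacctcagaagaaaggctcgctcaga
The Cxcr4 promoter differed in base composition from the others. It held 20 CpG and was 59.3% G and C, against 1 to 5 CpG and 38.0% to 54.3% in the other 7 promoters and medians of 7 CpG and 52.7% over 32851 promoters. It was also the only one of the 8 with a GC box (3 matches), which 35.7% of all promoters hold, and with the TATA box letters TATAAA, which 13.6% hold. Ccr4 alone held the AP-1 letters, found in 7.81% of all promoters. The NFAT core was in 6 of the 8 (all but Ccr8 and Cxcr3) and in 61.3% of all, and GGTGTG, a T-box core searched on both strands, was in none of the 8 and in 6257 of the 32851. These matches are descriptions of the letters in a short window and say nothing of binding.

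Cxcr6 encodes the receptor of CXCL16, a ligand that myeloid cells present on their surface and shed. The gene (Entrez 80901, mm10 chromosome 9, 123806477 to 123811754) has 1 transcript in the tables and lies within the span of Fyco1 on the opposite strand, without sharing an exonic base with it. Cxcr6 was at 469 and 367 FPKM in CNS and at 198 and 99.0 FPKM in dLN. Both CNS libraries lay above both dLN libraries, and it was the highest of the 9 receptors in each CNS library. Its log2 ratio was 1.56 (SE 0.35, limma adjusted p = 0.0115). Its dLN libraries were 2.0-fold apart, and the call was lost without CNS replicate 1 (log2 ratio 1.38, limma adjusted p = 0.116) or without CNS replicate 2 (1.73, limma adjusted p = 0.0723). Fyco1 itself was at 2.29 to 5.41 FPKM over the 4 libraries.

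Cxcr3, which encodes the receptor of the interferon-induced chemokines CXCL9 and CXCL10 and marks Th1 cells, was the most evenly measured member. Its FPKM was 192 and 189 in CNS and 83.3 and 94.6 in dLN, without overlap. The log2 ratio was 1.09 (SE 0.09, limma adjusted p = 0.000447), a 2.14-fold higher mean in CNS, and it stayed between 1.0 and 1.18 with each library left out. The gene (Entrez 12766, 101731536 to 101734147) is the only one of the 9 on the X chromosome. X-linked Xist was read almost only in dLN and Y-linked Ddx3y only in CNS. The part of sex in the values of Cxcr3 was not tested. Within each library Cxcr6 exceeded Cxcr3 by 2.45-fold and 1.94-fold in CNS and by 2.38-fold and 1.05-fold in dLN. This ratio overlapped between the tissues, unlike either gene alone. Both ratios of CNS over dLN were smaller than the median over the 5 CD4 T cell markers (1.88), and those of Cxcr4, Cx3cr1 and Ccr2 were larger. Of 8 Th1 genes 7 were higher in CNS and 0 lower, with a median of 1.77. Over all tested genes 37.8% were called higher, with a median of 0.05. Of the Th1 genes called higher, 1 passed the minimum of 1 FPKM through CNS alone, which set its direction.

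Cxcr4 had the largest rise of the 9 on the log2(FPKM + 1) scale, whereas the low Cx3cr1 had the larger ratio of mean FPKM, and with a pseudocount of 0.1 also the larger log2 ratio. Cxcr4 encodes the receptor of CXCL12, which retains cells in bone marrow and at the blood vessels of the CNS. The gene (Entrez 12767, chromosome 1, 128588199 to 128592299) was at 213 and 256 FPKM in CNS and at 21.5 and 19.1 FPKM in dLN, with each CNS library far above both dLN libraries. The mean was 11.6-fold higher in CNS, and the log2 ratio was 3.47 (SE 0.12, limma adjusted p = 8.95e-05). It was between 3.27 and 3.60 under every alternative tried, leaving out a library included. Cxcr4 stood above 96.7% and 97.1% of the tested genes in the CNS libraries and above 68.3% and 66.5% in the dLN libraries. Among the 9 receptors it was the second highest in both CNS libraries and the seventh in both dLN libraries.

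Ccr2 and Cx3cr1 are receptors best known from monocytes and from microglia, respectively, and both are also carried by effector T cells. Ccr2 (Entrez 12772, chromosome 9, 124102183 to 124109140), the receptor of CCL2, was at 158 and 112 FPKM in CNS and at 35.2 and 20.4 FPKM in dLN. The libraries did not overlap, and the log2 ratio was 2.27 (SE 0.30, limma adjusted p = 0.00191). Of the 6758 windows of 50 bases in Ccr2 transcripts of GENCODE M21, 129 (1.91%) also occur in other genes, so that a small part of the reads could be split between them.

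Cx3cr1 (Entrez 13051, chromosome 9, 120048683 to 120068296), the receptor of fractalkine, was close to absent from dLN. It was at 5.54 and 4.03 FPKM in CNS and at 0.151 and 0.0508 FPKM in dLN. The dLN values correspond to 10 fragments (95% Poisson interval 4.80 to 18.4) and 4 fragments (1.09 to 10.2), against 416 and 310 in CNS, and the intervals cover counting error only. The mean FPKM was 47.4-fold higher in CNS. On the log2(FPKM + 1) scale, which understates changes of low genes, the log2 ratio was 2.38 (SE 0.18, limma adjusted p = 0.000319), and it was 4.63 with a pseudocount of 0.1. Of the 4505 exonic bases of Cx3cr1 in GENCODE M21, 78 are shared with an antisense gene (Gm33858), and the library kit does not mark strand. Even in CNS the gene stood above only 35.1% and 25.9% of the tested genes.

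Myeloid markers were read in the same libraries. Of 14 microglia and macrophage markers 10 were tested, and 7 of them were called higher in CNS. Since 9 of the 10 passed the minimum of 1 FPKM through CNS alone, the filter set their direction. The other, Cd68, did not pass the test. The summed FPKM of the 14 was 22.8 and 243 in CNS and 4.43 and 4.07 in dLN, and 9 of the 14 were listed at 0 in both dLN libraries, among them Csf1r, Tyrobp and the C1q genes. In CNS Csf1r was at 0.668 and 5.26 FPKM, and Tmem119, which defines microglia, at 0.198 and 0.954 FPKM. The markers summed to a higher value in CNS replicate 2 than in replicate 1. Cx3cr1 and Ccr2 were both lower in replicate 2, by 0.38 and 0.49 on the log2 scale. Without CNS replicate 2 the log2 ratio was 2.57 for Cx3cr1 and 2.51 for Ccr2. The part of microglia and macrophages in the values of Cx3cr1 and Ccr2 was not tested.

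Ccr1, a receptor of CCL3 and CCL5 prominent on monocytes and neutrophils, did not separate the tissues. It was at 1.64 and 6.01 FPKM in CNS and at 3.59 and 1.25 FPKM in dLN (Entrez 12768, chromosome 9, 123962126 to 123968692). The tissues overlapped, and the libraries within a tissue differed 3.66-fold in CNS and 2.87-fold in dLN. The log2 ratio of 0.42 (SE 0.57, limma adjusted p = 0.528) turned to -0.28 without CNS replicate 2. That library also stood apart in neutrophil and monocyte markers, whose 4 genes in the tables summed to 216 FPKM there, to 2.16 FPKM in CNS replicate 1 and to 0.309 and 0.116 FPKM in dLN. All 4 were above the minimum through CNS alone, and none was called. Whether those cells contribute to Ccr1 was not tested.

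**Figure D3:**
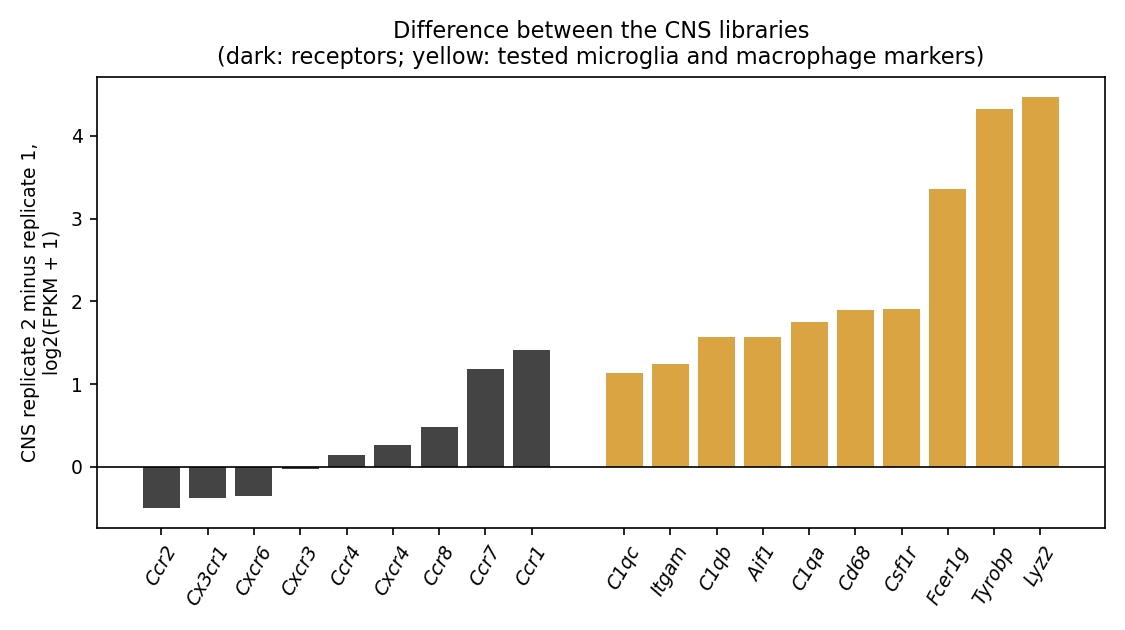
Difference between the CNS libraries, replicate 2 minus replicate 1 on log2(FPKM + 1), for the 9 receptors (dark bars) and the 10 tested microglia and macrophage markers (yellow bars). Ccr1 and Ccr7 were higher in replicate 2 by 1.41 and 1.18, Ccr2, Cx3cr1 and Cxcr6 were lower, and all 10 markers were higher, Lyz2 by 4.47.

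The receptors that fell in CNS were Ccr8, Ccr4 and Ccr7. Ccr8 (Entrez 12776, chromosome 9, 120092133 to 120094906) encodes the receptor of CCL1, and was at 33.7 and 47.4 FPKM in CNS and at 154 and 177 FPKM in dLN. It was the highest of the 9 receptors in dLN replicate 2 and second to Cxcr6 in dLN replicate 1. The mean was 4.08-fold higher in dLN, and the log2 ratio was -2.02 (SE 0.18, limma adjusted p = 0.000541). Ccr4 (Entrez 12773, chromosome 9, 114490316 to 114496544), the receptor of CCL17 and CCL22, was at 17.7 and 19.6 FPKM in CNS and at 76.5 and 62.6 FPKM in dLN. Its mean was 3.72-fold higher in dLN, with a log2 ratio of -1.84 (SE 0.13, limma adjusted p = 0.000264). For both genes the dLN libraries all lay above the CNS libraries, and neither call was lost under any alternative tried. The Ccr8 to Ccr4 ratio within a library was 1.90 and 2.41 in CNS and 2.02 and 2.82 in dLN, so it overlapped between the tissues although each gene alone did not.

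Th2 cells and regulatory T cells are known to carry CCR4 and CCR8, and genes of both were read beside them. Of 6 Th2 genes, 5 were tested, and 4 were lower in CNS and 0 higher. These were Il4, Il5 and Il13, which stimulation also induces, and Gata3, with a log2 ratio of -0.97. Il5 was listed at 0 in both CNS libraries, and Il4 and Il5 passed the filter through dLN alone, which set their direction. Of 8 regulatory T cell genes 7 were lower and 1, Tnfrsf18, was higher in CNS, with a median of -1.30 and Foxp3 at -1.39. Over all tested genes 37.2% were lower, with a median of 0.05. The part of these cell types in the values of Ccr4 and Ccr8 was not tested.

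Ccr7 (Entrez 12775, chromosome 11, 99144199 to 99155077) encodes the receptor of CCL19 and CCL21. It was at 5.61 and 14.0 FPKM in CNS and at 25.9 and 21.3 FPKM in dLN, so the CNS libraries were 2.49-fold apart but still below both dLN libraries. The log2 ratio was -1.30 (SE 0.40, limma adjusted p = 0.0331). This call was lost under 3 alternatives, without dLN replicate 1 (-1.17, limma adjusted p = 0.132), without dLN replicate 2 (-1.44, limma adjusted p = 0.0893) and with no filter on low values (limma adjusted p = 0.0949), and the log2 ratio was -0.71 without CNS replicate 1 and -1.89 without CNS replicate 2. The tables list 2 transcripts of Ccr7. Nearly all of its FPKM was on the longer one (1975 bases), and the other (1925 bases) did not exceed 0.464 FPKM. Dendritic cells that have entered lymph nodes also carry CCR7. Of 5 dendritic cell markers 4 were tested, each through a single tissue, of which 1 was called higher and 1 lower in CNS. The sum of the 5 was 5.77 and 13.5 FPKM in CNS and 1.30 and 1.17 FPKM in dLN. Flt3, Siglech and Clec9a were listed at 0 in both dLN libraries. The part of dendritic cells in the values of Ccr7 was not tested.

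The repertoire changed its make-up between the tissues. The 9 receptors summed to 1095 and 1015 FPKM in CNS and to 598 and 495 FPKM in dLN. Of that sum, the 5 genes that rose held 94.6% and 91.4% in CNS and 56.5% and 47.1% in dLN, and the 3 that fell held 5.21% and 7.98% in CNS and 42.9% and 52.7% in dLN. Cxcr4 alone moved from 3.59% and 3.86% in dLN to 19.4% and 25.3% in CNS. Ccr8 was at 25.8% and 35.7% in dLN and at 3.08% and 4.67% in CNS, while the share of Cxcr3 overlapped between the tissues (17.5% and 18.6% in CNS, 13.9% and 19.1% in dLN). These shares do not depend on how a library was scaled, but they follow from the same values as the log2 ratios and add no independent test. Ordered by mean in CNS, the levels ran Cxcr6, Cxcr4, Cxcr3, Ccr2, Ccr8, Ccr4, Ccr7, Cx3cr1 and Ccr1, and of these neighbours only Cx3cr1 and Ccr1 overlapped. In dLN the order was Ccr8, Cxcr6, Cxcr3, Ccr4, Ccr2, Ccr7, Cxcr4, Ccr1 and Cx3cr1, and Ccr8 overlapped with Cxcr6, Ccr2 with Ccr7, and Ccr7 with Cxcr4. Since Cxcr3 rose and Ccr8 fell, Cxcr3 was 5.69-fold and 3.98-fold above Ccr8 in CNS and at 0.541 and 0.535 times Ccr8 in dLN.

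**Figure D4:**
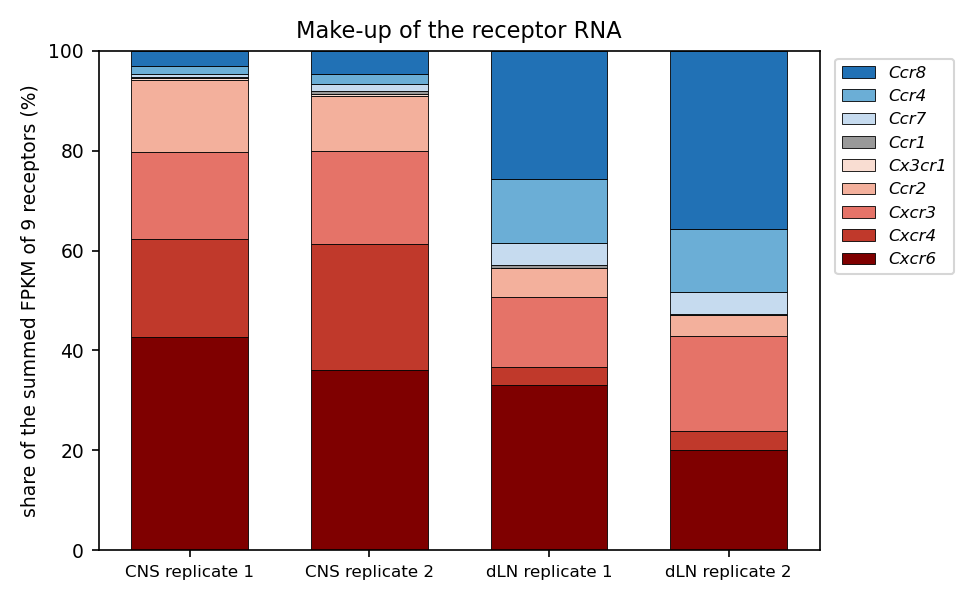
Share of each receptor (%) in the summed FPKM of the 9 genes, 1 bar per library, with genes that rose in CNS in red, genes that fell in blue and Ccr1 in grey. The red part takes 94.6% and 91.4% of the CNS bars and 56.5% and 47.1% of the dLN bars.

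Among the other receptors of the family, 9 were examined and 5 of them were tested, of which 2 were higher in CNS (Ccr9 and Ccrl2), 2 were lower and 1 did not pass. Ccr9 and Ccrl2 passed the minimum of 1 FPKM through CNS alone, so the filter set their direction, and their values are a description. Ccr9, the gut-homing receptor, was low, at 2.02 and 2.75 FPKM in CNS and 0.0391 and 0.0219 FPKM in dLN (log2 ratio 1.71). Ccrl2, a receptor that binds chemerin without signalling as a chemokine receptor does, was at 6.04 and 35.8 FPKM in CNS and at 0.290 and 0.430 FPKM in dLN (log2 ratio 3.57). Its log2 ratio was 2.37 without CNS replicate 2, the CNS library with more myeloid marker RNA, and 4.76 without CNS replicate 1. Which cells the Ccrl2 RNA came from was not tested. Ccr6 and Cxcr5, the receptor of follicular helper cells, were both lower in CNS, with log2 ratios of -2.62 and -1.36. Xcr1 did not differ beyond the spread of the replicates (0.15, limma adjusted p = 0.596). Of 4 atypical receptors, which take up chemokines without signalling through G proteins, 1 was tested: Ackr1 (Darc in the tables) was at 7.64 and 22.2 FPKM in CNS and listed at 0 in both dLN libraries, and it too passed the minimum through CNS alone.

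On chromosome 9 lie 11 of these 18 receptor genes, 6 of them members. Neighbours there did not all have the same sign. Cx3cr1 and Ccr8, the closest pair of members on the map, had log2 ratios of 2.38 and -2.02. Cx3cr1, and Ccr9 further on, passed the minimum of 1 FPKM through CNS alone, which set their direction. Ccr4, on their proximal side, fell as Ccr8 did. Among the distal genes from Ccr9 to Ccr2, Ccr9, Cxcr6 and Ccr2 were higher in CNS, Xcr1 and Ccr1 did not pass the test, and Ccr3, at under 1 FPKM in each library, was not tested. Among them Ccr1 and Ccr2 stood at 3.83 and 135 FPKM in CNS on average.

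**Figure D5:**
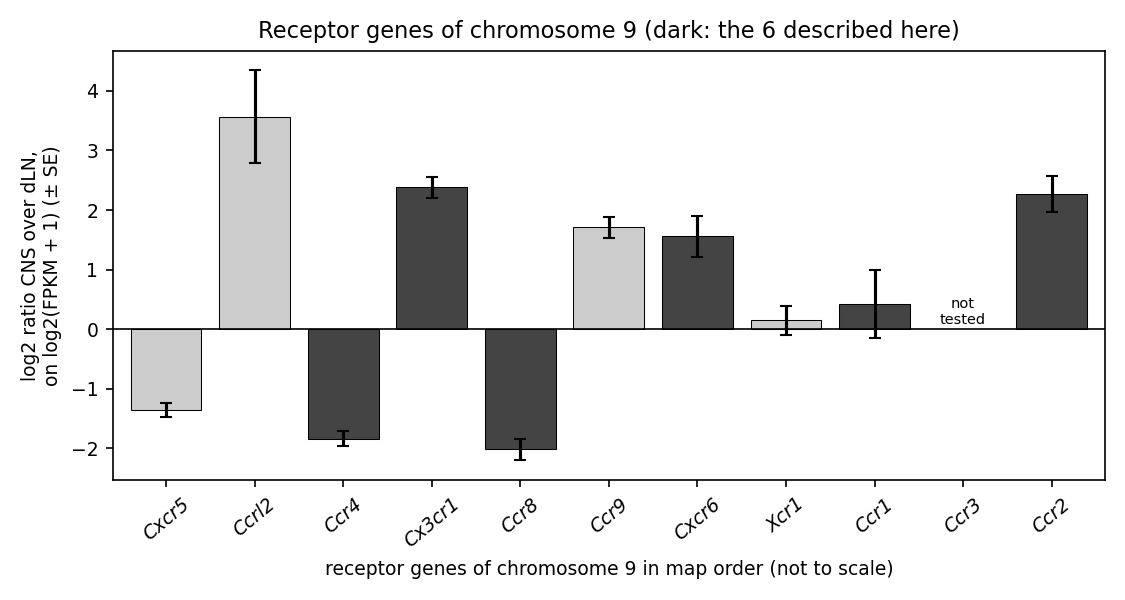
Log2 ratio of CNS over dLN on log2(FPKM + 1), with limma standard errors, for these 11 receptor genes of chromosome 9 in map order and not to scale. Dark bars are the 6 members on that chromosome. Cx3cr1 (2.38) and Ccr8 (-2.02) stand side by side with opposite signs, and Ccr3 was not tested. Cx3cr1, Ccr9 and Ccrl2 passed the minimum of 1 FPKM through CNS alone, which set their direction.

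Ligands of the 9 receptors were read in the same libraries. The 14 microglia and macrophage markers summed to 22.8 FPKM in CNS replicate 1 and to 243 FPKM in CNS replicate 2. Which cells the ligand RNA came from was not tested. Of 20 ligand genes 12 were tested, of which 4 were called higher in CNS (Ccl5, Cxcl10, Cxcl9 and Ccl19) and 8 did not pass. Of the 12, 7 reached the minimum of 1 FPKM in CNS alone, Cxcl9 and Ccl19 among them, and the filter set their direction. Of the 5 that reached it in both tissues, Ccl5 and Cxcl10 were higher and Ccl1, Ccl3 and Ccl4 did not pass. Ccl5, a ligand of CCR1, was at 1269 and 1019 FPKM in CNS and at 5.98 and 4.31 FPKM in dLN (log2 ratio 7.55, limma adjusted p = 8.12e-05). Cxcl10, a ligand of CXCR3, was at 15.6 and 51.7 FPKM in CNS and at 2.60 and 2.57 FPKM in dLN (3.04, limma adjusted p = 0.00535). Without CNS replicate 2 the log2 ratio of Cxcl10 was 2.21, and without CNS replicate 1 it was 3.88. The ligand of CCR8, Ccl1, was high in both tissues, at 80.4 and 276 FPKM in CNS and 189 and 158 FPKM in dLN, and did not pass (limma adjusted p = 0.754). Its log2 ratio depended on the CNS library, at 0.67 without CNS replicate 1 and -1.09 without CNS replicate 2. Ccl17 and Ccl22, the ligands of CCR4, were at 28.1 and 12.7 FPKM in CNS replicate 2 and at 1.05 FPKM or less in the other libraries, and neither passed. Cxcl12, the ligand of CXCR4, was listed at 0 in both dLN libraries and was at 0.280 and 0.230 FPKM in CNS.

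Among genes tied to receptor function, more were higher than lower in CNS. The list held signal transducers together with Cd74, the protease gene Adam10 and the sulfating enzymes Tpst1 and Tpst2. Of its 26 genes, all tested, 17 were higher, 3 lower and 6 did not pass, with a median log2 ratio of 1.03. Over all tested genes 37.8% were higher and 37.2% lower, with a median of 0.05. Of the 26, 2 passed the filter through CNS alone (Arrb1 and Rasgrp2) and 1 through dLN alone (Tpst1), which set their direction. Gnai2, the inhibitory G protein subunit through which chemokine receptors act, was at 427 and 443 FPKM in CNS and at 68.1 and 43.1 FPKM in dLN (log2 ratio 2.98, limma adjusted p = 0.000309). Gnai3, another inhibitory subunit, was at 74.1 and 62.6 FPKM in CNS and at 79.9 and 78.7 FPKM in dLN and did not pass (-0.22, limma adjusted p = 0.125), and Gnaq was lower in CNS (-0.35, limma adjusted p = 0.0264). Rac2 and Dock2, which drive the actin response during migration, had log2 ratios of 3.34 and 2.36, and Arrb2, an arrestin that takes up activated receptors, one of 3.13. Rasgrp2, which activates integrins downstream of the receptors, had one of 3.97 and passed the filter through CNS alone. The enzymes that sulfate receptor tyrosines went apart, with Tpst1 lower (-2.65) and Tpst2 higher (1.18) in CNS, although Tpst1 passed the filter through dLN alone. Adam10, a protease that sheds CXCL16 and fractalkine, was lower (-1.17).

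Markers of B, CD8 T and NK cells were low next to those of CD4 T cells. B cell markers summed to 1.22 and 1.76 FPKM in CNS and 0.432 and 0.258 FPKM in dLN, and 1 of 4, Cd79b, was tested and called higher, having passed the filter through CNS alone. CD8 T and NK cell markers summed to 6.32 and 9.19 FPKM in CNS and 3.50 and 3.40 FPKM in dLN, with 1 of 2 tested genes called higher, again one that passed through CNS alone. Of 7 neural markers 3 were tested, 2 of which passed through CNS alone, and 1 was called higher and 1 lower in CNS. Mbp, which lymphoid cells also transcribe, made up most of their sum, and Mog and Aqp4 were listed at 0 in dLN.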

How the data were processed

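The authors trimmed and mapped the reads of 4 TruSeq libraries (HiSeq2500) and deposited FPKM for 33819 RefSeq transcripts of mm10, separately for each tissue. How FPKM was computed is not given in the sources used here. In the CNS file a single header cell names both libraries, and its value columns were read in that order. FPKM was summed by gene symbol, and 565 transcripts without a symbol were left out. The 10634 genes whose mean reached 1 FPKM in either tissue, a limit taken from the Methods, were tested with limma 3.58.1 in R 4.3.3 (lmFit, eBayes with trend) on log2(FPKM + 1), with tissue as the term and Benjamini-Hochberg adjustment over all of them at 0.05. The fit was tested on simulated data. Each log2 ratio is CNS over dLN.

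Depth came from the steps of low FPKM of genes with 1 transcript: 90.9% to 92.9% of the lowest values lay within 0.05 of a whole fragment, where 10% would by chance, and gave 20.9 M, 21.6 M, 18.5 M and 22.0 M fragments for CNS replicates 1 and 2 and dLN replicates 1 and 2. Python 3.11.15 with pandas 2.3.3 and matplotlib 3.10.9 was used. The members and lists were chosen with earlier results of these data known. All members are named. Of other receptors, ligands and signalling genes, those whose mean reached 1 FPKM could be named, and a selection of them is; of marker lists, the highest and absent genes could be. Foxp3, Cd68, Fos, Jun, Junb, Il4, Il5, Il13, Cxcl12, Ccr3, Fyco1, the CD4 T cell markers and the sex-linked genes fall outside this rule. They were named after their values were seen. The 14 alternatives changed the pseudocount, filter, scaling, transcript, block, trend or libraries. A receptor of the family and a marker gene are not reported here. CD4 T cell (5 of 8 genes in the tables), Th1, Th2, regulatory T cell, myeloid, dendritic, B, CD8 T and NK, neural, stimulation and heat-shock lists were read by counts and medians.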

Additional observations from a re-analysis of the deposited data

How the results depend on the processing

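Of 126 comparisons of the 9 receptors under 14 alternatives, 119 changed neither sign nor call. Without each library in turn the log2 ratio of Cxcr6 lay between 1.06 and 2.05, that of Ccr7 between -1.89 and -0.71 and that of Ccr1 between -0.28 and 1.13. Cxcr6 lost its call without CNS replicate 1 (1.38) or CNS replicate 2 (1.73). Ccr7 lost it without dLN replicate 1 (-1.17) or dLN replicate 2 (-1.44), and with no filter on low values, where its log2 ratio stayed at -1.30 and 16782 genes were tested. Ccr1, never called, turned to -0.28 without CNS replicate 2 and to -0.0930 without dLN replicate 2. The number of receptors called was 8, and 7 without any 1 library or without the filter. Among other genes, leaving out a library took Xcr1 from -0.14 to 0.44, Ccl1 from -1.09 to 0.67 and Ccl4 from -1.58 to 0.15. The cause of these changes was not tested.

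The count of genes called was 7968 and lay between 6596 and 8477. The share higher in CNS was 50.4%, 43.1% when libraries were scaled to equal sums and 55.6% when scaled to equal upper quartiles, which shifted the median log2 ratio by -0.18 and 0.12. No receptor changed its call or direction with either. Replicates carry the numbers 1 and 2 in each tissue, but the replicate differences of CNS and dLN correlated at 0.0933 across genes and nothing states a pairing. With the replicate block 7828 genes and the same number of receptors, 8, were called. Depth limits Cx3cr1 in dLN, at 10 and 4 fragments.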
